A study of Mus musculus with 13 samples.

Results

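The 42 genes described here are interferon-stimulated genes, the antiviral effectors, sensors and regulators whose transcription type I and type II interferons switch on. They were taken by symbol from a list of 42, and all 42 had a row among the 23336 usable gene symbols of the deposited count tables. All 42 also passed the filter on low counts, which kept 13574 genes.

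When a cell senses viral nucleic acid it secretes interferon, which binds receptors on the same and on neighbouring cells. The receptors' JAK kinases then activate STAT transcription factors, which join IRF9 and bind a short promoter element, the interferon-stimulated response element (ISRE). A different element, the gamma-activated site (GAS), is typical of interferon-gamma signalling. In B cells some of these genes also respond to other stimuli that activate interferon regulatory factors.

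The cells were B cells of mouse spleen, purified by bead depletion of CD43+ cells, and their RNA was sequenced. Control cells were Regnase-1+/+ hCD20TamCre and deficient cells were Regnase-1f/f hCD20TamCre, so all cells carried the B cell-restricted, tamoxifen-dependent Cre and only the deficient cells carried floxed Regnase-1, the gene of an RNase that degrades inflammatory mRNAs. Of each genotype, cells were either untreated (naive) or stimulated through the B cell receptor with anti-IgM F(ab')2 for 4 hours, which gave 4 control unstimulated libraries and 3 libraries in each of the other groups (deficient unstimulated, control stimulated and deficient stimulated). The labels give no culture time for untreated cells, so differences after stimulation may include those of 4 hours in culture. They number the libraries but do not say that each came from a separate mouse, so the p-values measure the spread between these samples, part of which may be technical.

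Library totals ranged from 21407724 to 33244755 counts. As CPM, that is counts scaled by library size, 3 counts came to between 0.0902 and 0.140. Levels below are TMM-normalised CPM in libraries 1, 2, 3 and so on of a group, and a gene counts as called where edgeR's quasi-likelihood test gave a p under 0.05 after Benjamini-Hochberg adjustment over all 13574 genes. Zc3h12a, which encodes Regnase-1, was 0.58 lower on the log2 scale in deficient than in control stimulated cells (log2 fold change −0.58, SE 0.08, adjusted p = 0.000784), while the unstimulated difference of −0.32 was not called (adjusted p = 0.106). Transcripts of the undeleted exons can still be counted, so the level is only a partial check of the labels. Summed B cell markers (10 of 12 listed had a row, none at 0) lay between 9376 and 18387 CPM in every library, and all 8 of 8 genes chosen to check the stimulation rose in both genotypes. By their RNA, control 1 and deficient 2 and 3 were male and the other libraries female, so each group held cells of more than 1 mouse. Levels are bulk averages, in which fewer cells of a type and less RNA per cell cannot be told apart.

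The choice by symbol used no sequence, so promoters were read separately. RefSeq promoter windows on GRCm38.p6, from 250 bases before to 50 bases after the start site, matched 32 of the 42 genes. An ISRE, searched on both strands as GAAA, any 2 bases and GAAA, lay in at least 1 window of 16 of the 32 genes, against 3.88% of the 9614 tested genes that had a window. Stretches from 6 of them, which end at or before the start site, are printed here because they belong to the gene with the largest control rise, its neighbour, the ubiquitin-like modifier of the programme, a pair of adjacent near-identical promoters, and the only gene of the list that fell. Capitals mark the ISRE matches, including overlapping ones, and each sequence is read on the strand of its gene.
Ifit1, chr19:34640745-34640853, plus strand: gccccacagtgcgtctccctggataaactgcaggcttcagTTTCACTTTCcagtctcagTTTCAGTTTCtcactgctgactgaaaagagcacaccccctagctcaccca
Ifit3, chr19:34583333-34583456, plus strand: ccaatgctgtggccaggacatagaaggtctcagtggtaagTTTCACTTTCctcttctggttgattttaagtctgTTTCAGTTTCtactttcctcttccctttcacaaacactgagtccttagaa
Isg15, chr4:156200835-156200936, minus strand: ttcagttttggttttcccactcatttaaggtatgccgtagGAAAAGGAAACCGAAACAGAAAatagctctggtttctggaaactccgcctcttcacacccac
Igtp, chr11:58199482-58199555, plus strand: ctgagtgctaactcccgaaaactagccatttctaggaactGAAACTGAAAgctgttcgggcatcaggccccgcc
Irgm2, chr11:58214873-58214962, plus strand: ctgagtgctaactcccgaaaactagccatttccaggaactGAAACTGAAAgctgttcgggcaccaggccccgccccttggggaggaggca
Gbp3, chr3:142559959-142560043, plus strand: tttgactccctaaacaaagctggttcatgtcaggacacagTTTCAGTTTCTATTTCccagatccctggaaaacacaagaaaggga

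The matches began at positions −104 and −85 in Ifit1, −156 and −122 in Ifit3, from −78 to −66 in Isg15 (3 overlapping matches), −34 in Igtp, −64 in Irgm2, and −45 and −39 in Gbp3, where position 0 is the first transcribed base. A GAS, searched as TTCNNNGAA on both strands, lay in 10 of the 32 genes (31.2%), against 8.55% of the tested genes with a window, and the kappaB consensus in 3 (9.4% against 6.47%). Of 24 ISRE matches in these windows, 1 overlapped a GAS match and 0 overlapped a kappaB match. A match is a description of the letters in the window and not of a bound site.

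Before stimulation, every gene on the list had counts in all 4 control libraries, the fewest being 2 counts of Ifi44 in library 1. Per kilobase of exon, where levels of different genes can be compared, Trim25 (82.2 CPM per kb), Samd9l (65.7 CPM per kb) and Sp100 (55.0 CPM per kb) stood first in the mean of the 4 control unstimulated libraries. Gbp6 (0.179 CPM per kb) and Ifi44 (0.0480 CPM per kb) stood last. Trim25, Sp100 and Samd9l made up 49.6% of the summed CPM of the 42 genes at rest. After stimulation of control cells the first place per kilobase went to Oasl1 (114 CPM per kb), followed by Trim25 (97.2), Ifi35 (76.4), Ifit3 (75.0) and Isg15 (70.2 CPM per kb).

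**Figure D1:**
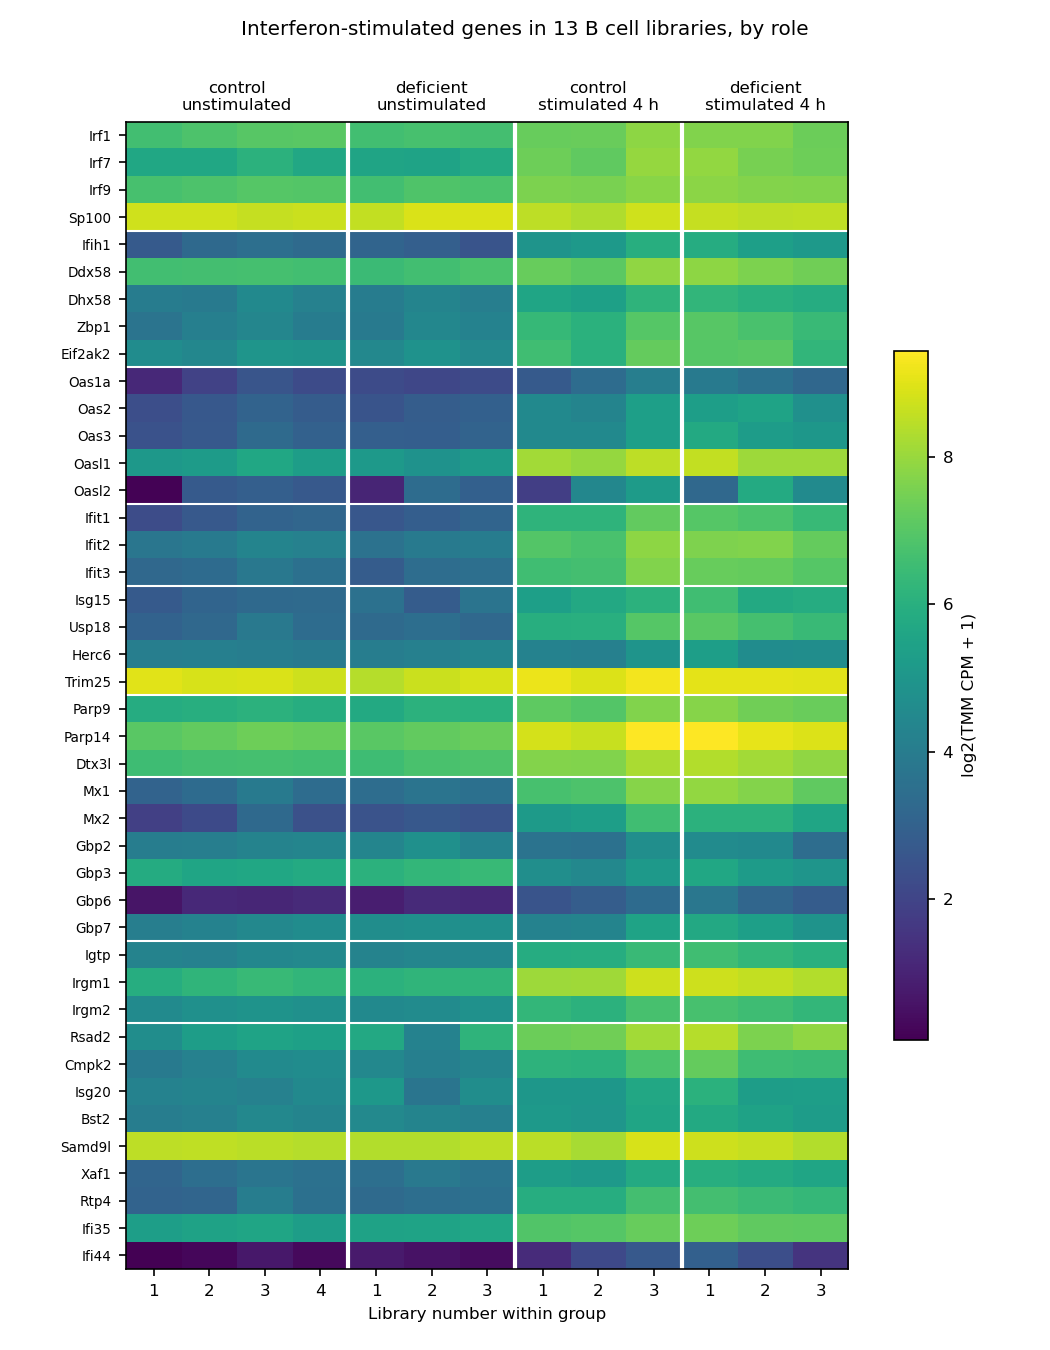
Level of each of the 42 genes (rows, ordered by role and separated by white lines) in each of 13 libraries (columns), as log2(TMM CPM + 1) on the colour scale. Colours compare libraries within a row and not genes, since CPM is not scaled to length; most rows turn lighter in the 6 stimulated libraries, and Trim25, Sp100 and Samd9l are light throughout.

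Stimulation of control cells raised 34 of the 42 genes and lowered 1, Gbp3, with 7 not called. Of all 13574 genes, 60.3% were called in this comparison, 28.5% higher and 31.8% lower. Rises of more than 2-fold were called for 31 of the 42 genes, against 10.1% of all genes. The median log2 fold change of the 42 was 1.89, against −0.13 over all genes. Levels of the 3 stimulated libraries did not overlap those of the 4 unstimulated ones for 36 of the 42 genes (63.5% of all genes), and 35 of these were higher (29.7%).

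In deficient cells stimulation raised 36 of the 42 genes and lowered 1, again Gbp3, with 5 not called. This comparison called 57.9% of all genes, 28.3% higher and 29.6% lower. Rises of more than 2-fold numbered 32, against 9.78% of all genes, and the median log2 fold change was 2.09, against −0.11 over all genes. Levels did not overlap for 38 of the 42 genes (62% of all genes), 37 of them higher (30.1%).

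**Figure D2:**
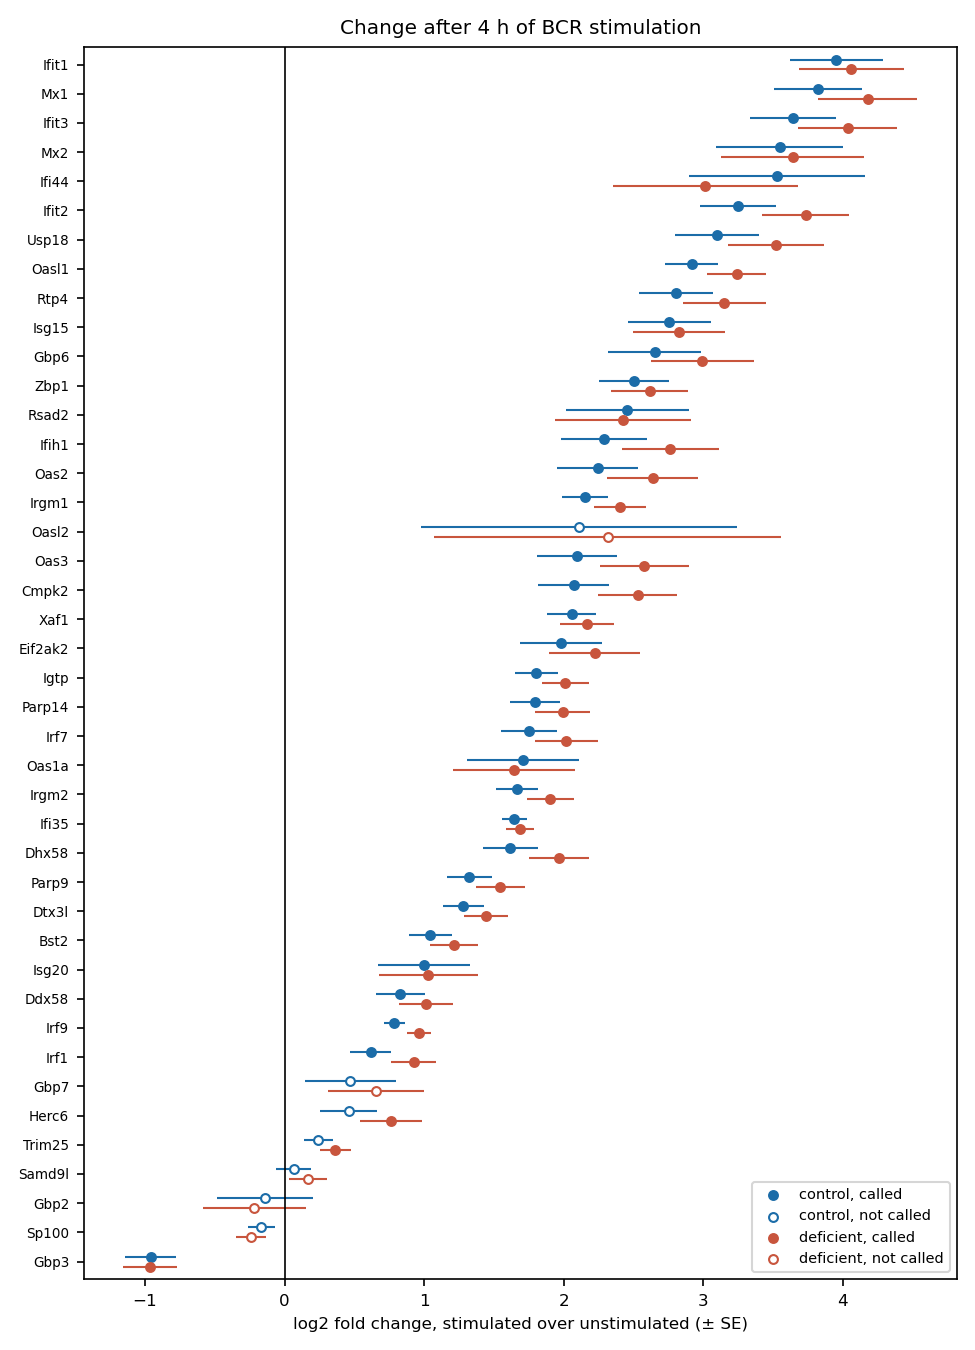
Log2 fold change of stimulated over unstimulated cells for each of the 42 genes, in control (blue) and deficient (red) cells, with standard errors as bars and filled points for called genes. Values run from −0.96 for Gbp3 in both genotypes to 3.95 for Ifit1 in control and 4.18 for Mx1 in deficient cells.

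Of the transcription factors and nuclear regulators, Irf1, Irf7 and Irf9 rose in both genotypes and Sp100 was not called. Irf9, the DNA-binding partner of STAT2, stood at 105, 113, 125 and 122 CPM in control unstimulated and at 191, 189 and 220.1 CPM in control stimulated libraries. In deficient cells it stood at 97.2, 116 and 110.2 CPM unstimulated and at 224, 206 and 201 CPM stimulated. Stimulated and unstimulated levels did not overlap in either genotype, and the log2 fold changes were 0.79 (SE 0.08, adjusted p = 2.01e-07) and 0.96 (SE 0.08, adjusted p = 5.75e-08). Irf7, which amplifies type I interferon production, rose by more: from 49.9, 50.2, 67.6 and 51.5 to 166, 142 and 245 CPM in control and from 45.3, 45.3 and 54.5 to 242, 181 and 164 CPM in deficient cells. The log2 fold changes of Irf7 were 1.75 (SE 0.20, adjusted p = 2.04e-05) and 2.02 (SE 0.23, adjusted p = 1.67e-05). Irf1, an early interferon-gamma target that can also be induced without interferon, rose by 0.62 and 0.92 on the log2 scale.

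Sp100, a scaffold protein of PML nuclear bodies, was among the most abundant of the list at rest. It stood at 433, 431, 390.0 and 409.7 CPM in control unstimulated, at 364, 316 and 432 CPM in control stimulated, at 381, 474 and 482 CPM in deficient unstimulated and at 394, 364 and 374 CPM in deficient stimulated libraries. Levels overlapped in both genotypes, and the log2 fold changes of −0.17 (adjusted p = 0.160) and −0.24 (adjusted p = 0.0622) were not called. Sp100 was called lower with upper-quartile scaling (−0.24, adjusted p = 0.0343, and −0.33, adjusted p = 0.00849), without control stimulated library 3 (−0.29, adjusted p = 0.0154) and, in deficient cells, without deficient unstimulated library 1 (−0.34, adjusted p = 0.00779).

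All 5 nucleic acid sensors rose in both genotypes. They were Ifih1 (MDA5) and Ddx58 (RIG-I), which detect viral RNA, Dhx58 (LGP2), which modulates them, Zbp1, a sensor of Z-form nucleic acid, and Eif2ak2 (PKR), a kinase that stops translation on binding double-stranded RNA. Control log2 fold changes ran from 0.83 for Ddx58 to 2.50 for Zbp1, and deficient ones from 1.01 for Ddx58 to 2.76 for Ifih1. Zbp1 rose from between 11.8 and 20.2 CPM to between 66.3 and 123 CPM in control cells, and from between 14.2 and 20.5 to between 86.0 and 128 CPM in deficient cells.

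Of the OAS family, whose classical members make 2′-5′ oligoadenylates that activate RNase L, Oas1a, Oas2, Oas3 and Oasl1 rose in both genotypes and Oasl2 was not called in either. Oasl1, an OAS-like protein without that enzyme activity, stood at 33.1, 36.3, 49.5 and 38.7 CPM in control unstimulated and 279.7, 249 and 364 CPM in control stimulated libraries. Deficient cells held 34.0, 27.9 and 35.1 CPM of it unstimulated and 378, 270.5 and 266 CPM stimulated. All stimulated libraries were above all unstimulated ones, with log2 fold changes of 2.92 (SE 0.19, adjusted p = 1.27e-07) in control and 3.24 (SE 0.21, adjusted p = 1.73e-07) in deficient cells. Oas1a shares 57.6% of its 50-base exon sequences with Oas1g, so its level is uncertain, and without the libraries of deficient number 1 its deficient rise of 1.64 became 1.53 and lost the call (adjusted p = 0.0567).

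Oasl2 had the widest spread within groups, a mean range over the 4 groups of 3.09 on the log2 scale. It stood at 0.111, 5.79, 6.61 and 5.56 CPM in control unstimulated and at 2.60, 20.2 and 36.0 CPM in control stimulated libraries. In deficient cells it stood at 1.11, 9.48 and 6.89 CPM unstimulated and at 8.52, 54.7 and 23.0 CPM stimulated. Both libraries numbered 1 of each genotype were the lowest of their group, and 0.111 CPM stood for 3 counts. Log2 fold changes of 2.11 (SE 1.13, adjusted p = 0.138) and 2.31 (SE 1.24, adjusted p = 0.142) were not called. With the library number within genotype as a block, which compares the states within each number, they were 2.27 (SE 0.31, adjusted p = 0.000483) and 2.33 (SE 0.29, adjusted p = 0.000267) and both were called.

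The 3 IFIT genes, whose proteins bind viral RNA and block its translation, rose more than 8-fold in both genotypes. Ifit1, which binds RNA lacking 2′-O methylation at its cap, stood at 3.80, 5.58, 7.35 and 8.04 CPM in control unstimulated and at 71.7, 71.6 and 146 CPM in control stimulated libraries. Deficient libraries held 5.26, 6.41 and 7.61 CPM of it unstimulated and 125, 110.2 and 83.8 CPM stimulated. The rise was 15.5-fold in control cells (log2 fold change 3.95, SE 0.34, adjusted p = 2.24e-06), the largest of the 42, and 16.7-fold in deficient cells (4.06, SE 0.38, adjusted p = 5.23e-06). The states did not overlap, and control stimulated library 3 was the highest of all 13 libraries.

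Ifit2, which acts with the other IFIT proteins in a complex, went from 12.7, 14.4, 19.0 and 17.6 to 120.1, 108 and 227 CPM in control cells and from 11.3, 14.5 and 15.3 to 196, 200.03 and 148 CPM in deficient cells. The responses of Ifit2 on the log2 scale were 3.25 (SE 0.27, adjusted p = 1.98e-06) and 3.73 (SE 0.31, adjusted p = 2.14e-06). Ifit3 went from 8.55, 9.43, 13.3 and 10.6 to 93.9, 98.7 and 199.9 CPM in control cells and from 5.98, 9.94 and 10.4 to 153, 149.7 and 125 CPM in deficient cells. Those of Ifit3 were 3.64 (SE 0.31, adjusted p = 2.20e-06) and 4.03 (SE 0.35, adjusted p = 3.23e-06). In all 3 genes every stimulated library was above every unstimulated one. Ifit3 shares 51.2% of its 50-base exon sequences with Ifit3b, so reads of the pair may be split between them. All 3 lie on chromosome 19, and the ISRE stretches of Ifit1 and Ifit3 are printed above, while the windows of Ifit2 held a GAS match and no ISRE match.

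In the ISG15 system, Isg15 and Usp18 rose strongly and the ligases little. Isg15, the ubiquitin-like modifier itself, stood at 5.79, 7.73, 8.83 and 8.99 CPM in control unstimulated and 39.9, 52.7 and 66.7 CPM in control stimulated libraries. It stood at 11.1, 6.02 and 12.1 CPM in deficient unstimulated and 93.6, 54.2 and 58.2 CPM in deficient stimulated libraries. The groups did not overlap between states, with log2 fold changes of 2.76 (SE 0.30, adjusted p = 1.20e-05) and 2.83 (SE 0.33, adjusted p = 2.44e-05). Usp18, which removes ISG15 from proteins and dampens the type I interferon receptor, rose by 3.10 and 3.52 on the log2 scale. Its levels went from between 7.30 and 13.5 to between 61.2 and 126 CPM in control cells and from between 8.52 and 10.1 to between 84.6 and 131 CPM in deficient cells.

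Trim25, a ubiquitin and ISG15 ligase that activates RIG-I, had the highest level per kilobase at rest. It stood at 521, 472, 479 and 419.9 CPM in control unstimulated, at 566, 494 and 618 CPM in control stimulated, at 336, 415 and 469 CPM in deficient unstimulated and at 524, 535 and 511 CPM in deficient stimulated libraries. Control groups overlapped and deficient groups did not. The log2 fold change was 0.24 in control (SE 0.10, adjusted p = 0.0576), not called, and 0.36 in deficient cells (SE 0.11, adjusted p = 0.0116), called. Herc6, the main mouse ISG15 ligase, likewise was called in deficient (0.76, adjusted p = 0.00975) and not in control cells (0.46, adjusted p = 0.0697). Neither gene's response was called as different between genotypes (differences of 0.12 and 0.30, adjusted p = 0.9997 for each). In control cells both were called with DESeq2 (adjusted p = 0.00246 for Trim25 and 0.00881 for Herc6), and leaving out single control libraries also moved the call: Trim25 without unstimulated library 1 (adjusted p = 0.0346) or stimulated library 2 (0.0202), Herc6 without stimulated library 1 (0.0452) or 2 (0.0336). Without the libraries of deficient number 1 the deficient rise of Herc6 was 0.50 and lost the call (adjusted p = 0.0540).

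Parp9, Parp14 and Dtx3l, which act in ADP-ribosylation, rose in both genotypes. Parp14, a mono-ADP-ribosyltransferase, stood at 130.3, 144, 166 and 153 CPM in control unstimulated and 451, 403 and 691 CPM in control stimulated libraries. Deficient libraries held 131, 144 and 157 CPM of it unstimulated and 678, 548 and 496 CPM stimulated. Log2 fold changes were 1.79 (SE 0.18, adjusted p = 4.06e-06) and 1.99 (SE 0.20, adjusted p = 4.39e-06), with no overlap between states. Parp9 rose by 1.32 and 1.55 and Dtx3l by 1.28 and 1.44 on the log2 scale. Exons of Parp9 and Dtx3l overlap over 458 bases on opposite strands, and no source used here gives the strand setting of the counting, so reads of that stretch cannot be assigned.

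The dynamin-like GTPases divided into genes with large rises, genes not called and the gene that fell. Mx1, whose intact protein restricts influenza viruses by binding their nucleoproteins, stood at 7.37, 9.36, 14.4 and 9.61 CPM in control unstimulated and 106, 114 and 212 CPM in control stimulated libraries. It stood at 9.81, 11.9 and 10.8 CPM in deficient unstimulated and 239, 206 and 143 CPM in deficient stimulated libraries. The rise was 14.1-fold in control (log2 fold change 3.82, SE 0.32, adjusted p = 1.87e-06) and 18.1-fold in deficient cells (4.18, SE 0.36, adjusted p = 2.81e-06), where it was the largest of the 42. Mx2, annotated in this mouse reference as a polymorphic pseudogene, rose by 3.55 and 3.64 on the log2 scale.

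Gbp6 was low and rose. A guanylate-binding protein of the interferon-gamma inducible set, it stood at 0.553, 1.25, 1.13 and 1.34 CPM in control unstimulated and 4.81, 6.18 and 9.27 CPM in control stimulated libraries. Deficient libraries held 0.831, 1.32 and 1.27 CPM of it unstimulated and 13.1, 8.05 and 6.08 CPM stimulated. Log2 fold changes were 2.65 (SE 0.33, adjusted p = 4.39e-06) and 2.99 (SE 0.37, adjusted p = 4.23e-06). Gbp6 shares 65.0% of its 50-base exon sequences with Gm43302, whose exons also overlap it, so its level is uncertain.

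Gbp3, a related guanylate-binding protein, was the only gene of the list that fell. It stood at 57.1, 47.5, 49.4 and 54.5 CPM in control unstimulated and at 25.3, 21.01 and 34.2 CPM in control stimulated libraries. In deficient cells it stood at 67.0, 77.5 and 82.6 CPM unstimulated and at 49.4, 36.6 and 30.6 CPM stimulated. Every stimulated library was below every unstimulated library of its genotype, a fall of 1.94-fold in control (log2 fold change −0.96, SE 0.18, adjusted p = 0.000698) and of 1.95-fold in deficient cells (−0.96, SE 0.19, adjusted p = 0.00100). Its promoter stretch, printed above, holds 2 overlapping ISRE matches. Gbp2 (−0.14 and −0.22) and Gbp7 (0.47 and 0.65 on the log2 scale) were not called in either genotype, and Gbp2, Gbp3 and Gbp7 lie on chromosome 3, each with an ISRE match in its window.

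The 3 immunity-related GTPases, which guard vacuoles of intracellular pathogens, rose in both genotypes. Irgm1, a regulator of the family, stood at 60.0, 72.5, 83.2 and 74.8 CPM in control unstimulated and 270.2, 274 and 425 CPM in control stimulated libraries. Deficient libraries held 67.1, 73.4 and 73.2 CPM of it unstimulated and 424, 378 and 326 CPM stimulated. Its log2 fold changes were 2.15 (SE 0.17, adjusted p = 4.92e-07) and 2.40 (SE 0.19, adjusted p = 5.57e-07). This was the largest rise of the family in both genotypes, and no stimulated library overlapped an unstimulated one.

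Igtp (Irgm3) went from 18.4, 17.4, 20.5 and 21.3 to 57.7, 59.4 and 86.0 CPM in control cells and from 18.4, 19.99 and 20.6 to 95.2, 77.6 and 64.8 CPM in deficient cells. On the log2 scale these rises were 1.80 (SE 0.15, adjusted p = 2.86e-07) and 2.01 (SE 0.17, adjusted p = 2.99e-07). Irgm2, its neighbour on chromosome 11, went from 22.5, 26.3, 29.1 and 26.6 to 75.9, 68.3 and 105 CPM in control cells and from 22.2, 23.1 and 27.5 to 104, 91.4 and 75.8 CPM in deficient cells. Irgm2 rose by 1.67 (SE 0.15, adjusted p = 8.14e-07) and 1.90 (SE 0.17, adjusted p = 6.80e-07) on the log2 scale. The promoter stretches of the pair, printed above, carry the same ISRE letters, and their exons overlap over 162 bases.

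Of the other 9 antiviral effectors, 8 rose in both genotypes and Samd9l did not pass the test in either. Ifi35, a partner of NMI, had the smallest p of the 42 in both genotypes. It stood at 39.4, 44.1, 46.8 and 38.2 CPM in control unstimulated and 119, 126 and 152 CPM in control stimulated libraries, and at 44.0, 45.3 and 48.7 CPM in deficient unstimulated and 163, 142 and 139 CPM in deficient stimulated ones. The log2 fold changes were 1.65 (SE 0.09, adjusted p = 3.52e-10) and 1.69 (SE 0.10, adjusted p = 9.90e-10). The libraries of each state lay close together and far from the other state.

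Xaf1, a pro-apoptotic antagonist of XIAP, went from 7.85, 9.98, 12.1 and 11.02 to 38.3, 34.9 and 54.8 CPM in control cells and from 10.5, 13.8 and 11.7 to 60.3, 54.7 and 46.7 CPM in deficient cells. Its log2 fold changes were 2.06 (SE 0.18, adjusted p = 3.13e-07) and 2.17 (SE 0.19, adjusted p = 5.49e-07). Rsad2 (viperin), which makes a chain-terminating nucleotide, and its neighbour Cmpk2, a mitochondrial nucleotide kinase, lie together on chromosome 12. Rsad2 spread widely, from 24.6, 38.3, 44.5 and 41.0 to 159.9, 169 and 283 CPM in control cells and from 52.1, 17.8 and 71.9 to 333, 189.8 and 235 CPM in deficient cells. States did not overlap, and its log2 fold changes of 2.46 (SE 0.44, adjusted p = 0.000785) and 2.43 (SE 0.49, adjusted p = 0.00171) had standard errors larger than those of Xaf1. Cmpk2 rose by 2.07 and 2.53 on the log2 scale.

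Ifi44 was the least abundant gene of the list. It stood at 0.0737, 0.208, 0.633 and 0.262 CPM in control unstimulated and 1.40, 3.47 and 5.52 CPM in control stimulated libraries, and the lowest library held 2 counts. In deficient cells it stood at 0.720, 0.482 and 0.317 CPM unstimulated and at 6.72, 4.09 and 1.87 CPM stimulated. States did not overlap, and the log2 fold changes were 3.53 (SE 0.63, adjusted p = 0.000249) and 3.02 (SE 0.66, adjusted p = 0.00139). Rtp4, a regulator of interferon responses, rose by 2.81 and 3.15, and Bst2 (tetherin), which holds budding virions at the cell surface, by 1.04 and 1.21 on the log2 scale.

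Isg20, an exonuclease, rose 2.00-fold in control (log2 fold change 1.002, SE 0.33, adjusted p = 0.0234) and 2.04-fold in deficient cells (1.03, SE 0.36, adjusted p = 0.0306). These calls were lost when single libraries were left out, in control cells without unstimulated library 1 (adjusted p = 0.0521), unstimulated library 3 (0.0535) or stimulated library 3 (0.103), and in deficient cells without unstimulated library 2 (0.0609), unstimulated library 3 (0.0645) or stimulated library 1 (0.117). Samd9l, a translation-inhibiting antiviral factor, stood at 366, 368, 354 and 339 CPM in control unstimulated and 355, 298 and 467 CPM in control stimulated libraries. It stood at 323, 328 and 359 CPM in deficient unstimulated and 419, 392 and 323 CPM in deficient stimulated libraries. Levels of the states overlapped, and the log2 fold changes of 0.06 (SE 0.13, adjusted p = 0.682) and 0.17 (SE 0.14, adjusted p = 0.318) were not called.

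An ISRE match did not separate the genes by their response to stimulation of control cells. Of the 16 genes with a match, 13 rose, with a median log2 fold change of 1.89 and a range from −0.96 (Gbp3) to 3.95 (Ifit1). Of the 16 genes with a window and no match, 11 rose, with a median of 1.46. Oasl1 and Ifi44, both with large rises, had windows with no ISRE match, which says only that these letters are not in those windows.

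Stimulated libraries of a group differed from each other in most of the 42 genes at once. The range within a group, averaged per gene over the 4 groups, unstimulated ones included, had a median of 0.59 on the log2 scale for the 42 genes. The median was 0.27 for all tested genes. Control stimulated library 3 was the highest of its group in 42 of the 42 genes, and in 32.3% of all tested genes. Deficient stimulated library 1 was the highest of its group in 36 of 42 (37.5% of all genes), and library 3 the lowest in 36. Among unstimulated libraries, control 3 was highest in 28 of 42 genes (17% of all genes), control 1 lowest in 32 and deficient 1 lowest in 29. Shares of all genes were not counted for the lowest library. The median log2 deviation of control 1 from its group mean was −0.25 over the 42 genes and 0.03 over all genes. That of deficient 1 was −0.12 over the 42 genes and −0.06 over all genes.

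Summed over the 42 genes, control unstimulated libraries held 2430, 2492, 2643 and 2479 CPM and control stimulated ones 4847, 4531 and 7168 CPM. Deficient libraries held 2236, 2488 and 2677 CPM unstimulated and 7063, 6054 and 5321 CPM stimulated. Same-numbered libraries of a genotype deviated together across states, so that folds could be taken within numbers: the summed level rose 1.99-, 1.82- and 2.71-fold in control numbers 1, 2 and 3, and 3.16-, 2.43- and 1.99-fold in deficient numbers 1, 2 and 3. The folds of the genotypes overlapped. Among control numbers, number 3 had the largest fold for 30 of the 42 genes and number 1 for 12, and among deficient numbers, number 1 had the largest fold for 39. Each number is 1 pair of libraries, and shares of all genes were not counted for these folds.

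**Figure D3:**
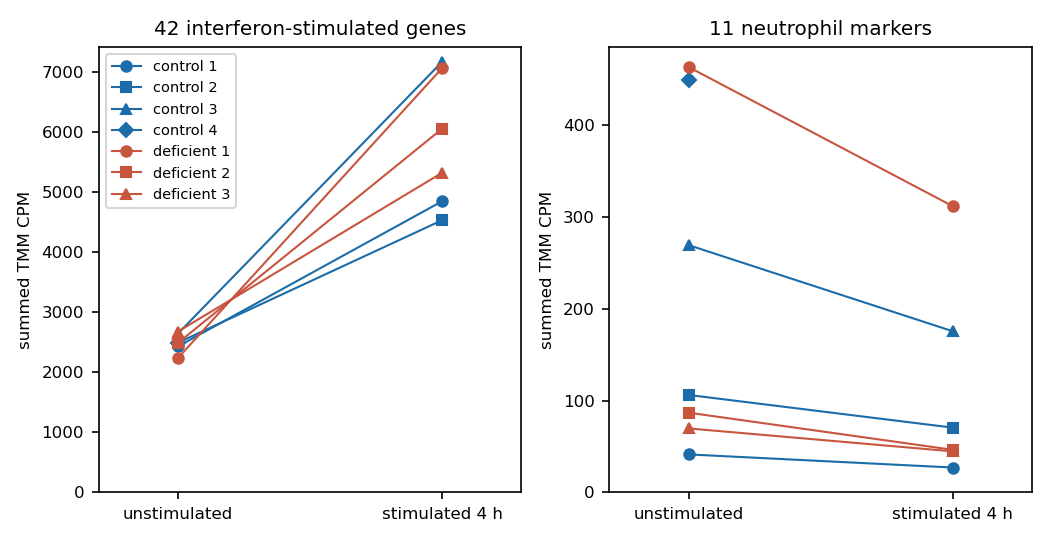
Summed TMM CPM of the 42 genes (left) and of 11 neutrophil markers (right) in unstimulated and stimulated libraries, with lines joining same-numbered libraries of a genotype; control number 4 had no stimulated library. The sum of the 42 genes rose along all 6 lines, and the sum of the neutrophil markers fell along all 6.

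Markers of other cells also differed between these libraries. Summed neutrophil markers (11 of 12 had a row, none at 0) stood at 27.1, 70.6 and 176 CPM in control stimulated and at 312, 46.4 and 44.7 CPM in deficient stimulated libraries, so they were highest in the same libraries, control 3 and deficient 1. Their sums at rest were 41.4, 106, 269 and 449 CPM (control) and 463, 86.9 and 69.7 CPM (deficient), where deficient 1 was highest in neutrophil markers and lowest in 29 of the 42 genes. Summed monocyte and macrophage markers (13 of 14 with a row, none at 0) stood at 107, 104 and 211 CPM in control stimulated and at 220.3, 102 and 86.9 CPM in deficient stimulated libraries. Siglech, a marker of plasmacytoid dendritic cells, was picked from their 10 listed markers after its values were seen. Its stimulated levels were 2.83, 2.85 and 6.60 CPM (control) and 10.9, 4.94 and 1.12 CPM (deficient), again highest in control 3 and deficient 1. At rest Siglech had levels of 2.80, 2.81, 9.64 and 9.88 CPM (control) and 9.67, 7.77 and 1.63 CPM (deficient). All 10 listed markers of these cells had a row and none was at 0. Their sum varied less, with 291, 309 and 321 CPM in control stimulated and 421, 413 and 406 CPM in deficient stimulated libraries. Its highest values, in control 3 and deficient 1, were close to those of the other libraries of the group. At rest the sum ran the other way from Siglech, with 606, 603, 551 and 560 CPM (control) and 579, 692 and 682 CPM (deficient), lowest in control 3 and deficient 1. T cell, NK cell and erythroid markers had this order after stimulation in 1 genotype only. T cell markers, at 73.4, 86.1 and 102 CPM (control) and 96.4, 107 and 91.8 CPM (deficient), were highest in control 3 and deficient 2. So were NK cell markers, at 7.93, 9.13 and 35.8 CPM (control) and 18.03, 20.1 and 7.54 CPM (deficient). Erythroid markers, at 322, 512 and 408 CPM (control) and 1263, 141 and 504 CPM (deficient), were highest in control 2 and deficient 1. Other lists had this order in neither genotype. Conventional dendritic cell markers stood at 83.0, 69.5 and 76.2 CPM (control) and 58.0, 64.2 and 39.7 CPM (deficient) after stimulation. Plasma cell and B-1 cell markers stood at 3532, 3582 and 3199 CPM (control) and 2522, 2809 and 2919 CPM (deficient). The part of such cells in the differences between libraries was not tested.

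Deficient cells were compared with control cells in each state. In unstimulated cells edgeR's quasi-likelihood test called 0 of the 42 genes, with 1 at an unadjusted p under 0.05, and 0.324% of all genes were called. The median log2 fold change of deficient over control was 0.03, and 24 of the 42 values were above 0 (44.7% of all genes). DESeq2 called 1 of the 42, Gbp3. Only Gbp3 and Gbp7 had groups that did not overlap, 2 of 42, against 8.72% of all genes. Gbp3 stood at 47.5 to 57.1 CPM in the 4 control and at 67.0 to 82.6 CPM in the 3 deficient libraries (log2 fold change 0.54, SE 0.18, adjusted p = 0.395 with edgeR, adjusted p = 0.0196 with DESeq2). Gbp7 stood at 16.1 to 23.9 CPM in control and at 24.8 to 26.2 CPM in deficient libraries (0.39, SE 0.32, adjusted p = 0.809).

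In stimulated cells edgeR's quasi-likelihood test again called 0 of the 42 genes, with 1 at an unadjusted p under 0.05, and 2.01% of all genes were called. No member had groups that did not overlap (0 of 42, against 17.8% of all genes). Log2 fold changes were above 0 for 41 of the 42 genes (50.7% of all genes), with Trim25 at −0.10 the exception, and the median was 0.24. Gbp3 again had the smallest p, with 25.3, 21.01 and 34.2 CPM in control cells against 49.4, 36.6 and 30.6 CPM in deficient cells (log2 fold change 0.53, SE 0.19, adjusted p = 0.269 with edgeR, adjusted p = 0.0381 with DESeq2, which called only this gene of the 42). Its lowest deficient library lay below the highest control library.

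The size of the stimulated difference varied with single libraries. Without the libraries of deficient number 1 the median over the 42 genes was 0.09 in place of 0.24, without those of control number 3 it was 0.56, and without both it was 0.37. It was 0.11 without control stimulated library 1 and 0.12 without control stimulated library 2. With control number 3 and deficient number 1 both left out 2 genes were called, Ifit3 (log2 fold change 0.52, adjusted p = 0.0339) and Parp9 (0.33, adjusted p = 0.0438). Without control stimulated library 3 alone, Gbp7 was called (1.13, adjusted p = 0.0347). With the sex read from the RNA as a term the median was 0.32 and 0 genes were called.

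**Figure D4:**
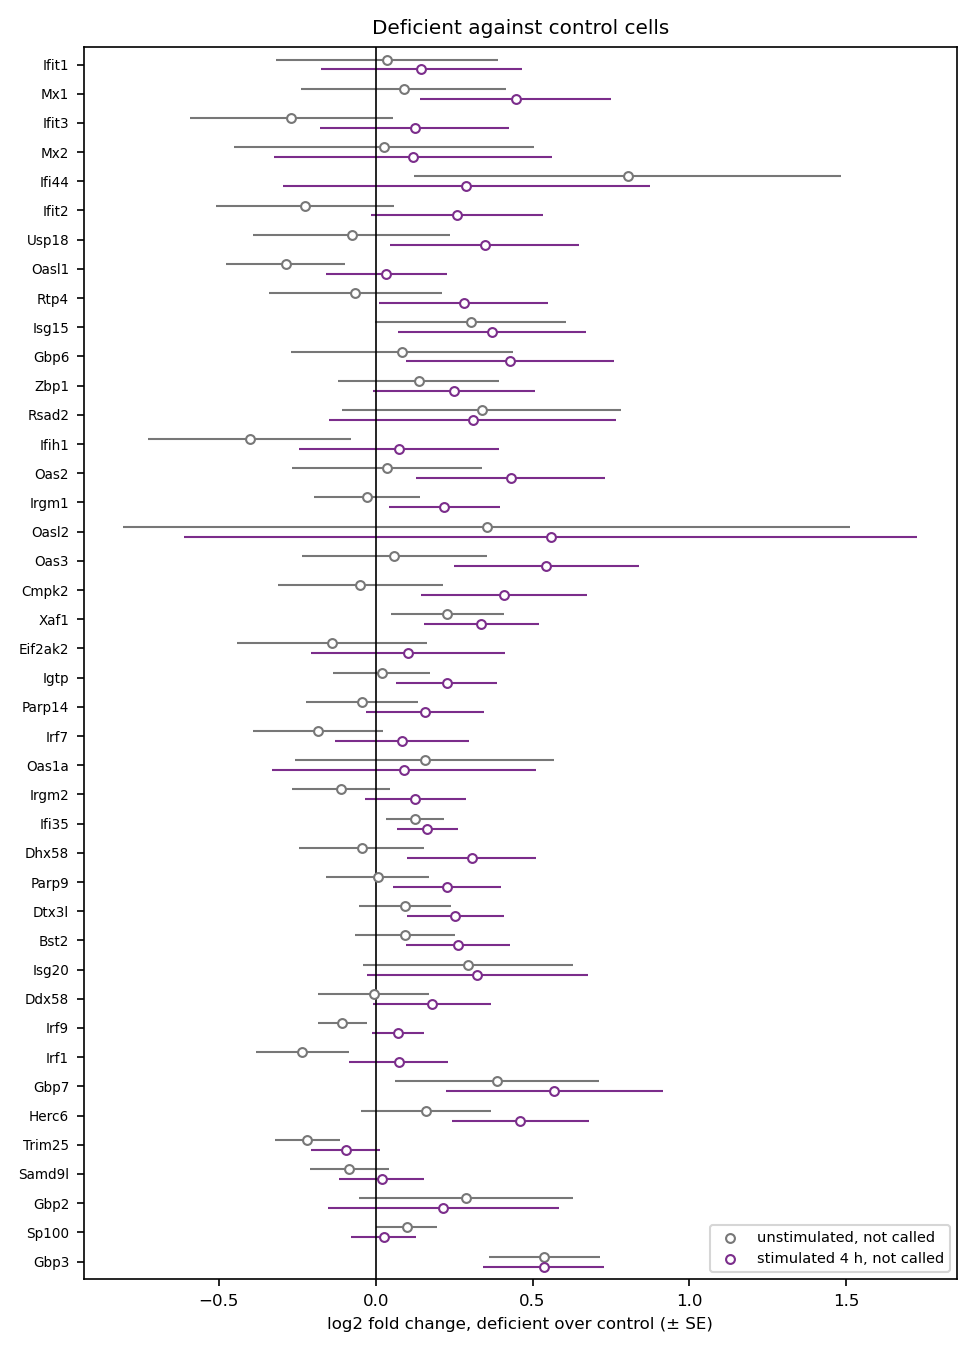
Log2 fold change of deficient over control cells for each of the 42 genes, unstimulated (grey) and stimulated (purple), with standard errors as bars; open points were not called, which holds for all 84 values. Stimulated values lie above 0 for 41 of the 42 genes.

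The responses to stimulation were not called as different between genotypes for any of the 42 genes. On group means, without pairing, edgeR's quasi-likelihood test of the difference called 0, with 0 at an unadjusted p under 0.05, and DESeq2 also called 0. Over all genes 0.00737% were called. The deficient response was the larger for 36 of the 42 genes (55.5% of all genes), with a median difference of 0.20 on the log2 scale. Differences ran from −0.51 for Ifi44 (SE 0.89) to 0.48 for Ifit2 (SE 0.39), and standard errors reached 1.65 for Oasl2. With the library number within genotype as a block the standard errors were smaller, for example 0.43 for Oasl2 and 0.28 for Ifit2, and 0 of the 42 were called. In that quasi-likelihood fit the smallest adjusted p belonged to Usp18 (difference 0.46, SE 0.14, adjusted p = 0.347) and Ifih1 (0.48, SE 0.16, adjusted p = 0.358). Its unadjusted p-values were not counted. The median difference also varied with single libraries: it was 0.02 without both libraries of deficient number 1, 0.06 without its stimulated library alone, 0.40 without both of control number 3 and 0.48 without its stimulated library alone. It was 0.07 without control stimulated library 2, 0.12 without control stimulated library 1 and 0.32 without deficient stimulated library 3.

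The genes that make, receive and restrain interferon were taken from further lists. Of 21 interferon genes 17 had a row, of which 8 had 0 counts in every library and 13 never reached 3 counts. Ifnb1, the early type I interferon, had 0, 0, 4 and 0 counts in control unstimulated and 13, 9 and 24 counts in control stimulated libraries. In deficient cells it had 0, 0 and 0 counts unstimulated and 13, 12 and 19 counts stimulated. It was called higher in both genotypes (adjusted p = 0.00275 and 0.000863). Pooled CPM was 15.6-fold higher in control, from 4 counts, and at least 17.2-fold higher in deficient cells, taking 3 counts over the group as the floor. Control stimulated library 3, highest in all 42 genes, also had the most Ifnb1 counts of its group, while deficient stimulated library 3, lowest in 36 of the 42, had the most of its own. Ifng, the type II interferon, rose in deficient cells (log2 fold change 1.33, adjusted p = 0.0141) and was not called in control cells (0.89, adjusted p = 0.0595).

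Of 10 receptors and signalling proteins with a row (of 11 listed), 6 fell in control and 6 in deficient cells, and the others rose or were not called. Of all genes, 31.8% fell in control and 29.6% in deficient cells. The falls with the smallest p were those of the interferon-gamma receptor chains Ifngr2 (log2 fold change −1.25 in control and −0.92 in deficient cells) and Ifngr1 (−1.47 and −1.44), the type I receptor chain Ifnar1 (−0.80 and −0.78) and the kinase Tyk2 (−0.90 and −0.88). Stat2, a transcription factor that the type I receptor activates, rose by 0.59 and 0.86 on the log2 scale.

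Of 11 brakes on the pathway 6 rose and 4 fell in control, and 7 rose and 4 fell in deficient cells. The shares of all genes were 28.5% higher and 31.8% lower in control and 28.3% higher and 29.6% lower in deficient cells. Irf2, a repressor at interferon response elements, fell by 1.53 and 1.46 on the log2 scale. Adar, which edits double-stranded RNA so that it escapes the sensors, rose by 0.97 and 1.14. The phosphatase Ptpn2 rose by 0.53 and 0.51, and the corepressor Trim28 by 0.52 and 0.60. Socs1, the JAK inhibitor, rose by 1.74 and 2.23.

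**Figure D5:**
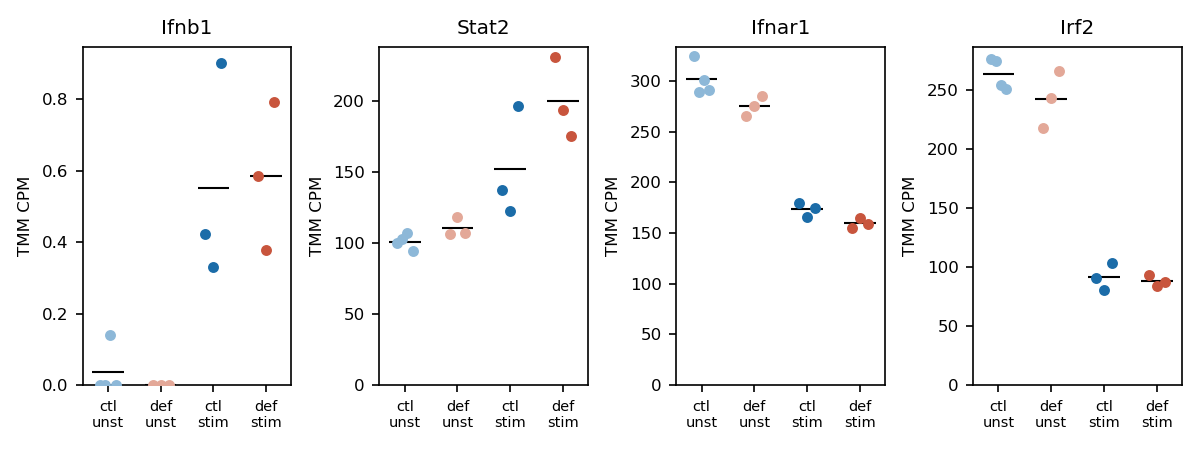
TMM CPM of Ifnb1, Stat2, Ifnar1 and Irf2 in each library (points) with group means (lines), each axis starting at 0; ctl is control, def deficient, unst unstimulated and stim stimulated. Ifnb1 and Stat2 are higher, and Ifnar1 and Irf2 lower, in all stimulated libraries than in all unstimulated ones.

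Upstream of interferon, 19 of 20 listed sensors and adaptors had a row, of which 6 rose and 8 fell in control and 6 rose and 7 fell in deficient cells. These shares are near those of all genes (28.5% higher and 31.8% lower in control, 28.3% and 29.6% in deficient cells). Irf8, a factor of B cells and dendritic cells, rose by 1.45 and 1.21, and Tlr7, a receptor of single-stranded RNA, by 2.60 and 2.70 on the log2 scale. Unc93b1, the chaperone of the endosomal Toll-like receptors, fell by 1.11 and 0.99, and Tmem173 (STING) fell by 2.45 and 2.61. In stimulated cells 2 of these 19 genes were called between genotypes, against 2.01% of all genes. Irf5 was lower (log2 fold change −0.43, adjusted p = 0.000734) and Unc93b1 higher (0.26, adjusted p = 0.0149) in deficient cells.

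Of 44 further interferon-stimulated genes that were tested, 29 rose and 6 fell in control and 28 rose and 5 fell in deficient cells, with median log2 fold changes of 0.77 and 0.98. Of all genes 28.5% and 28.3% rose and 31.8% and 29.6% fell, with medians of −0.13 and −0.11. The smallest p values belonged to Ly6e, which fell by 1.24 and 1.21, Trim30d (2.14 and 2.36), Psmb8, an immunoproteasome subunit that fell by 0.87 and 0.78, and Ifi47 (2.51 and 2.82), an immunity-related GTPase. None of the genes in these pathway lists was called in unstimulated cells between genotypes or in the difference of responses, by edgeR's quasi-likelihood test. Between genotypes in unstimulated cells, 6 of the 10 receptors and signalling proteins had groups that did not overlap. The share of all genes, in either direction, was 8.72%. All 6 were lower in deficient cells, and the share of all genes in that direction was not counted. Jak2 and Jak1 had the smallest p of these, with log2 fold changes of −0.18 (adjusted p = 0.273) and −0.26 (adjusted p = 0.320).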

How the data were processed

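The study sequenced RNA in 13 libraries. The authors deposited 2 tables per library: raw read counts by gene symbol, made with TopHat and HTSeq on mm10 per the submitters' processing notes, and log2 values, for which the notes name DESeq2. Versions, annotation, strand setting and the log2 transformation are not given in the sources used here. Of 23337 symbols, 1 was dropped for a missing cell. The log2 values served only as an alternative.

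The main test was edgeR 4.0.16 (R 4.3.3) on the counts: filterByExpr by group with a minimum count of 10, TMM factors, and a robust quasi-likelihood fit of group means over 13 libraries, which left 9 residual degrees of freedom. Benjamini-Hochberg adjustment ran over 13574 genes, and the script was tested on simulated data. Replicate pairs differed by a chi-square per gene of 8.22 to 36.1, beyond sampling noise. Exon lengths, overlaps and shared 50-base sequences came from GENCODE vM21 on mm10, promoters from RefSeq on GRCm38.p6.

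As a check of pairing, the deviations of same-numbered libraries from their group means were correlated across states over 9470 genes. The r was 0.55 to 0.77 in control and 0.64 to 0.85 in deficient cells, so numbers were taken to pair the states within a genotype; across genotypes (−0.65 to −0.09) they did not.

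Values by library are given for the called genes with the smallest p in each comparison (at most 12), the most abundant and the most variable ones, and pathway genes are named by smallest p (at most 4 a list). Irf7, Isg15, Gbp3, Gbp7, genes named for their family or because a call moved, Socs1, Stat2, Irf5, Ifng and Siglech were named after their values were seen. The members and lists were chosen with earlier results of these data known. Some genes of the pathway lists are not reported here. Alternatives were other scalings, filters and tests (DESeq2 1.42.0, and limma 3.58.1 on the log2 values), fits of single pairs of groups, a replicate block, a term for sex, and fits without certain libraries.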

Additional observations from a re-analysis of the deposited data

Results flagged for a closer look

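Among 43 values examined in the 4 control unstimulated libraries (the 42 genes and their sum), 2 had a library far from the other libraries of the group; chance alone flags about 1 in 20. Irf7 stood at 67.6 CPM in library 3, and the gap to the next library was 0.906 of the whole range. Oasl2 stood at 0.111 CPM in library 1, with a gap of 0.838 of the range.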

How the results depend on the processing

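No call changed direction under any alternative. Values near 0 that were not called did change sign: the median over the 42 genes between unstimulated genotypes was 0.03 with all libraries and −0.09 to 0.12 over single libraries left out, and the log2 ratio of their sums went from −0.03 to 0.02 (CPM of the library total) and 0.04 (mean of log2(CPM + 1)). Stimulation called 34 to 37 of the 42 genes in control and 36 to 39 in deficient cells over all settings. Between genotypes, unstimulated, DESeq2 and the fit of only the groups compared each called 1 gene, Gbp3 (log2 fold changes 0.55 and 0.56, adjusted p = 0.0196 and 0.0123). Stimulated, DESeq2 called 1, Gbp3 (0.51), and the fit without the libraries of control 3 and deficient 1 called 2 (Ifit3 and Parp9). Leaving out single libraries gave 0 to 1, the 1 being Gbp7 without control stimulated library 3. The difference of responses called 0 of the 42 under every alternative run, but its count over all genes went from 1 to 48 with DESeq2, 19 with sex as a term and 68 with the replicate block. Counts over all genes between genotypes went from 44 to 163 (DESeq2) and 198 (sex term) unstimulated, with 17 to 46 over single libraries left out, and from 273 to 532, 511 and, without control 3, 137 stimulated. With the library number within genotype as a block, stimulation called 36 of the 42 genes in control and 38 in deficient cells. The difference of responses called 0 with that block, and Oasl2 was the call the pairing added in both genotypes. The genotype comparisons also called 0 and 0, but their block joined same-numbered libraries across genotypes, which did not pair. Those counts are therefore no check on a genotype difference. Averaging log2(CPM + 1) over the 42 genes in place of summing CPM gave stimulation differences of 1.67 and 1.90, against 1.11 and 1.31 for the log2 ratio of sums, in which Trim25, Sp100 and Samd9l weigh most. The unstimulated difference of Zc3h12a (−0.32, not called) was called with DESeq2 (−0.31, adjusted p = 0.0175) and in the fit that held sex (−0.38, adjusted p = 0.00848). It ranged from −0.40 to −0.25 over single libraries left out, called without deficient unstimulated library 3 (adjusted p = 0.0372). Scaling moved the median of all genes in the control response from −0.13 (TMM) to −0.06 (DESeq2 size factors) and −0.20 (upper quartile). Of 17 interferon genes with a row, 13 never reached 3 counts, so their changes were not detectable at this depth.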

Other observations

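Other genes of the signalling chain, named after their values were seen, also moved with stimulation. The kinase Jak1, shared by the type I and type II receptors, fell by 0.70 in control and by 0.48 in deficient cells on the log2 scale, and the type I receptor chain Ifnar2 fell by 0.24 and 0.20. Jak2, a kinase of the interferon-gamma receptor, rose in deficient cells (0.39) and was not called in control cells (0.11). Socs3, an inhibitor of cytokine signalling, likewise rose in deficient cells (0.74) and was not called in control cells (0.25). Neither gene's response was called as different between genotypes in edgeR's quasi-likelihood test.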
